A study of Rattus norvegicus with 6 samples.

Results

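The genes described here encode the proteins of the cytosolic ribosome. They were chosen by name: every probe whose RefSeq accession maps to a rat symbol starting with Rpl or Rps and a digit, or to Rplp0, Rplp1, Rplp2 or Rpsa, without the Rps6k kinases and without pseudogenes. That gave 242 of the 61657 probes of the array, for 82 of its 15284 named genes, of which 51 belong to the large and 31 to the small subunit. A gene has 1 to 8 probes with a median of 3, and 9 of the 82 symbols are copies or paralogs: Rpl22l1, Rpl27l2, Rpl36al1, Rpl37al2, Rpl37l1, Rpl39l1, Rpl3l, Rps12l4 and Rps4y2. Rps9, Rpl26, Rpl37, Rpl7l1, Rps27l and Rpl26l1 had no matched probe and were not analysed here.

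The samples are livers of 6 male Sprague-Dawley (Crl:CD(SD)) rats bought at 5 weeks of age. The 3 control animals were dosed with corn oil, the vehicle, and the other 3 with bromodichloromethane, a halogenated by-product of water chlorination, at 200 mg/kg/day. The labels give the exposure as 28 days in one place and as 9 weeks in another, which was not settled here. Total RNA of each animal was hybridised to 1 Agilent array in 1 colour, so a group has 3 samples.

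The ribosome has a small subunit that reads the mRNA and a large subunit that joins amino acids, and each is built from ribosomal RNA and one copy of most of its proteins. The mRNAs of nearly all these proteins start with a short run of pyrimidines, the terminal oligopyrimidine or TOP motif, through which the mTORC1 kinase and the RNA-binding protein LARP1 control their translation. The liver makes most plasma proteins and is rich in ribosomes, and its hepatocytes hold most of the RNA of the tissue.

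The start regions of members with large and small changes are shown to let the shared pyrimidine run be seen beside the values that follow. Each window is read 5′ to 3′ from RefSeq (GRCr8, used here for sequence and names only) and covers 30 bases before the gene's start and 15 bases from it. Capitals mark an unbroken run of at least 5 C or T that covers the first transcribed base. The first 5 genes rose after bromodichloromethane and have a run.
Rps26, chr7:1643390-1643434, minus strand: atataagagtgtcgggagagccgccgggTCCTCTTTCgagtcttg
Rpl12, chr3:36661910-36661954, plus strand: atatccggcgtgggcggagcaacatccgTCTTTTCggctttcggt
Rps24, chr16:96487-96531, plus strand: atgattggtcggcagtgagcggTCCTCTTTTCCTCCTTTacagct
Rps23, chr2:23814487-23814531, plus strand: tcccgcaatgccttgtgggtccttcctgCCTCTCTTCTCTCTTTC
Rpl28, chr1:78083518-78083562, minus strand: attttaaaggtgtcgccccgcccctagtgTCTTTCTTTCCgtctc
Rps19 and Rpsa also rose and have no such run at the annotated start.
Rps19, chr1:89608658-89608702, plus strand: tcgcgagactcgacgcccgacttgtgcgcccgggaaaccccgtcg
Rpsa, chr8:128728849-128728893, plus strand: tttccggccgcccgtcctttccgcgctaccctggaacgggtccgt
Rps2 and Rpl10 have long runs and are among the smallest changes of their subunits.
Rps2, chr10:14251818-14251862, plus strand: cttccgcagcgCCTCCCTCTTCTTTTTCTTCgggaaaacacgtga
Rpl10, chrX:157205820-157205864, plus strand: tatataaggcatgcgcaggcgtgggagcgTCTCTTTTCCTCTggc

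Promoter windows of 300 bases were held for 66 of the 82 genes, as 67 windows because Rps27a has 2. The run over the first base was found in 38 of the 67 windows (56.7%), against 12.0% of 33469 windows of all rat genes. The first base was C in 52.2% of the members' windows and in 24.1% of all windows. CGGAAG, the core of ETS factor sites, searched on both strands, was in 53.7% against 16.6%; its opposite-strand form begins with pyrimidines and can overlap the run. GATGGC, a form of the YY1 site, on both strands, was in 28.4% against 14.4%. CACGTG, the E-box that Myc binds, was in 7.46% against 6.42%, and TATAAA on both strands in 10.4% against 14.2%. A match is a stretch of letters in a window and no measured site.

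Ribosomal protein mRNAs were higher in the livers of the bromodichloromethane group, as a family and by small amounts. Values are log2 of the processed signal relative to the 75th percentile of the array, a change is the bromodichloromethane mean minus the corn oil mean, and a gene is said to have risen where limma's adjusted p, Benjamini-Hochberg over all 28995 features, was under 0.05. Of the 82 genes, 79 gave a signal well above background in every animal of one group or of both and were measured, 49 of the large and 30 of the small subunit. A total of 26 of the 79 rose (32.9%), none fell, and 53 did not pass; over all features 5.96% rose and 3.41% fell. The median change of the 79 was 0.36, or 1.28-fold, with a middle range of 0.27 to 0.45, against a median of 0.0014 over all features. The groups did not overlap in 69 of the 79 genes, with the bromodichloromethane animals higher in each, against 18.4% of all features. No member changed by 2-fold or more, and 65 had an unadjusted limma p under 0.05 upward and 0 downward. The share of all features at that unadjusted p is not given here. This count, and later ones at an unadjusted p, therefore have no background to be read against.

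**Figure D1:**
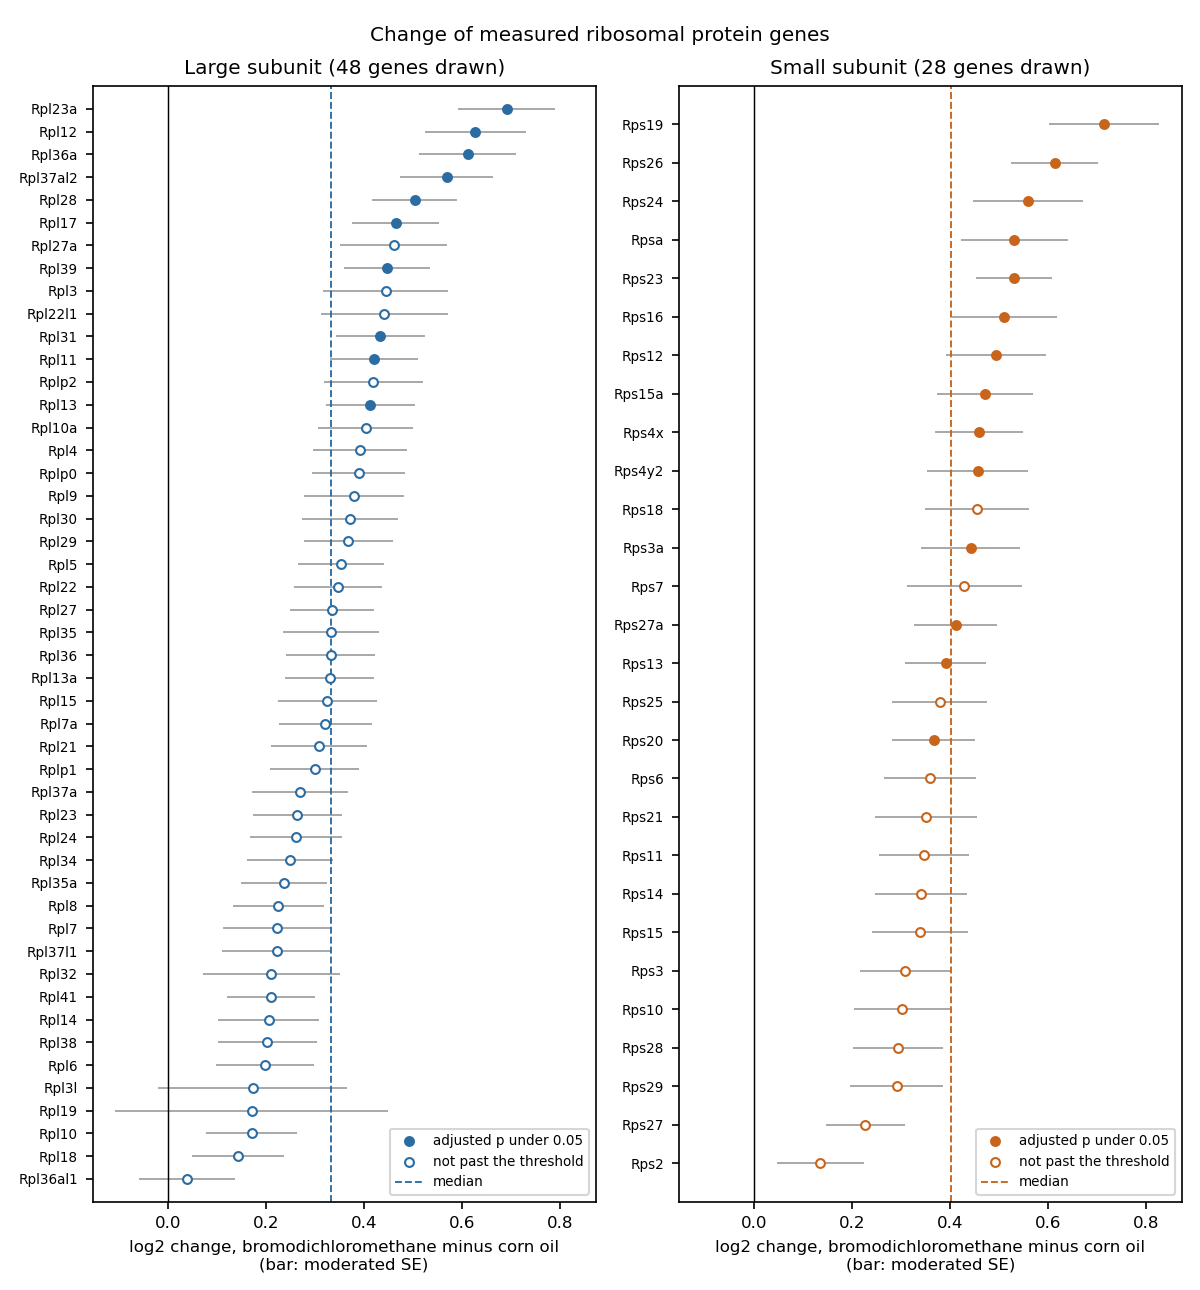
Log2 change of measured ribosomal protein genes (horizontal axis, bromodichloromethane minus corn oil, 3 animals per group) with its moderated standard error, by subunit, ordered by size; filled points passed an adjusted p of 0.05 in limma, open points did not, and the dashed line is the median over all measured genes of the subunit. The 76 genes drawn, of 79 measured, all lie above 0, from 0.04 for Rpl36al1 to 0.71 for Rps19, and filled points are 10 of 48 in the large and 14 of 28 in the small subunit.

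On 1-colour arrays these changes are relative to the array's upper quartile. Scaled instead by the spiked-in control transcripts, the median of all features moved up to 0.48 and that of the members to 0.84. This scaling shifts every change by the same amount, so it cannot test the gap of 0.36 between members and all features. In whole liver, fewer cells of a type and less RNA per cell cannot be told apart. The labels do not say how the animals were allotted to slides: slide 1 holds all 3 corn oil animals and bromodichloromethane 1, and slide 2 holds bromodichloromethane 2 and 3.

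Among the small subunit proteins the largest change was that of Rps19, which is needed to mature the small subunit and is mutated in Diamond-Blackfan anaemia. Its level was 6.29, 6.02 and 6.31 in corn oil 1 to 3 and 7.01, 6.91 and 6.84 in bromodichloromethane 1 to 3. The lowest treated animal was above the highest control by more than the whole spread of either group, and the change was 0.71 (SE 0.11, limma adjusted p = 0.021). All 4 of its probes were higher, by 0.53 to 0.83.

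Rps26, which lines the path by which mRNA leaves the small subunit, read 4.62, 4.44 and 4.57 in corn oil and 5.18, 5.11 and 5.19 in bromodichloromethane. The groups were well apart, with a change of 0.61 (SE 0.09, limma adjusted p = 0.017). Rps24, another protein of the Diamond-Blackfan group, read 6.43, 6.24 and 6.36 against 7.04, 6.73 and 6.93, with the second treated animal the lowest of its group. Its change was 0.56 (SE 0.11, limma adjusted p = 0.035).

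Rps23 sits at the decoding centre, where codon and anticodon are matched. It had tighter controls than Rps19, Rps26, Rps24 and Rpsa, at 7.89, 7.85 and 7.85, against 8.35, 8.39 and 8.44 in the treated animals. The change of 0.53 (SE 0.08, limma adjusted p = 0.018) was many times the SD of 0.02 in corn oil and 0.05 in bromodichloromethane. Rpsa, also known as the laminin receptor precursor, rose by 0.53 (SE 0.11, limma adjusted p = 0.037), from 5.85, 5.67 and 5.96 to 6.46, 6.33 and 6.28. Corn oil 2 was the lowest animal for all 5 of these genes, close to corn oil 3 for Rps23.

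Among the large subunit proteins Rpl23a, which lies at the mouth of the tunnel through which the new protein leaves, led with 4.20, 4.0 and 4.20 in corn oil and 4.91, 4.79 and 4.77 in bromodichloromethane. The groups were apart, the change was 0.69 (SE 0.10, limma adjusted p = 0.017), and its 3 probes gave 0.61 to 0.69. Rpl12, at the base of the stalk that recruits elongation factors, read 6.63, 6.34 and 6.57 against 7.18, 7.09 and 7.16. It rose by 0.63 (SE 0.10, limma adjusted p = 0.023), and the treated animals differed among themselves less than the controls did.

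Rpl28, which in mammals has no counterpart in yeast, rose by 0.50 (SE 0.09, limma adjusted p = 0.025), from 6.24, 6.07 and 6.20 to 6.72, 6.64 and 6.67. Rpl37al2, a copy of Rpl37a with 1 probe, rose by 0.57 (SE 0.10, limma adjusted p = 0.023), from 3.27, 3.13 and 3.25 to 3.90, 3.70 and 3.76. Rpl37a itself changed by 0.27 on its brighter probe and by 0.46 on the other, without passing on either (limma adjusted p = 0.14 and 0.054 with every probe on its own). Signal from near-identical copies may not be told apart by these probes, whose sequences were not held, so this was not checked.

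Rpl36a and its paralog gene Rpl36al1 gave different values. Rpl36a rose by 0.61 (SE 0.10, limma adjusted p = 0.022), from 5.46, 5.24 and 5.41 to 6.07, 5.94 and 5.94. Rpl36al1 read 6.74, 6.57 and 6.70 against 6.81, 6.60 and 6.72, so its groups overlapped, and its change of 0.04 (SE 0.10, limma adjusted p = 0.83) was the smallest of all 79. That value turned to -0.03 under quantile normalization and to -0.0094 without bromodichloromethane 1 and -0.0098 without corn oil 2. Of the 5 Rpl36a probes, 4 gave 0.58 to 0.69 and the dimmest gave -0.0043, the only one of the 237 kept member probes below 0. The difference between the paralogs was not tested.

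A further 6 small subunit genes that rose were Rps16, Rps12, Rps15a, Rps3a, Rps13 and Rps20, by 0.37 to 0.51 (limma adjusted p from 0.037 to 0.048). A further 4 large subunit genes that rose were Rpl17, Rpl39, Rpl31 and Rpl13, by 0.41 to 0.47 (limma adjusted p from 0.032 to 0.044). Rps13 had the most even treated group, at 6.77 in all 3 animals, above controls of 6.41, 6.29 and 6.43. The remaining 27 large and 10 small subunit genes that did not pass had changes of 0.17 to 0.46 and 0.29 to 0.45. Their groups did not overlap in 22 and 10 of them, against 18.4% of all features with bromodichloromethane higher.

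The stalk proteins, which bring translation factors to the large subunit, had changes close to the family's median on their brightest probes. Rplp0, the stalk's scaffold, read 8.81, 8.57 and 8.66 in corn oil and 9.10, 9.06 and 9.06 in bromodichloromethane, a change of 0.39 (SE 0.09, limma adjusted p = 0.055). Its partners Rplp1 and Rplp2 gave 0.30 (limma adjusted p = 0.094) and 0.42 (limma adjusted p = 0.055). None of the 3 passed the threshold on that probe, and in each the groups did not overlap there. The dimmest probes of Rplp0, Rplp1 and Rplp2 gave 0.68, 0.56 and 0.63. With every probe on its own these passed (limma adjusted p = 0.023, 0.030 and 0.026). The remaining Rplp0 probe gave 0.30 and did not (limma adjusted p = 0.13). Rplp2 read 7.88, 7.75 and 7.85 against 8.40, 8.17 and 8.17, with bromodichloromethane 1 on slide 1 the highest.

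Rpl5 and Rpl11 form, with a small ribosomal RNA, the particle that can bind Mdm2 and stabilise p53 when ribosome assembly fails. Rpl11 rose by 0.42 (SE 0.09, limma adjusted p = 0.041), from 7.20, 7.02 and 7.13 to 7.60, 7.52 and 7.50. Rpl5 read 5.96, 5.77 and 5.93 against 6.24, 6.23 and 6.26, a change of 0.35 (SE 0.09) that did not pass (limma adjusted p = 0.059). With every probe on its own, the Rpl5 probes at 0.42 and 0.43 passed (limma adjusted p = 0.040 and 0.034). Those at 0.35 and 0.37 did not. Both genes had groups that did not overlap. Of 10 measured p53 target and sensor genes none passed; Cdkn1a, the cell cycle inhibitor p21, changed by -0.28 (limma adjusted p = 0.17) and Sesn2 by -0.71 (limma adjusted p = 0.083).

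Rps6, the substrate of the S6 kinases downstream of mTORC1, read 8.21, 7.99 and 8.13 against 8.42, 8.50 and 8.49, a change of 0.36 (SE 0.09, limma adjusted p = 0.066). Rps3, at the mRNA entry site, gave 0.31 (limma adjusted p = 0.092), and Rpl13a, a common reference gene in quantitative PCR, gave 0.33 (limma adjusted p = 0.075). Rpl13a read 7.39, 7.18 and 7.26 in corn oil and 7.57, 7.61 and 7.63 in bromodichloromethane, so every treated animal was above every control. Rps27a, made as a fusion to ubiquitin, rose by 0.41 (SE 0.08, limma adjusted p = 0.037), from 6.85, 6.73 and 6.86 to 7.18, 7.23 and 7.27.

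The paralog pairs gave similar values in places. Rps4x and Rps4y2, whose start in the RefSeq table lies on chromosome 4, both rose by 0.46 (limma adjusted p = 0.034 and 0.046). Rpl22 and Rpl22l1, a pair in which the first is known to restrain the second, changed by 0.35 and 0.44 on their brightest probes without passing (limma adjusted p = 0.065 and 0.088). With every probe on its own, the dimmest Rpl22 probe, at 0.44, passed (limma adjusted p = 0.042). The Rpl22l1 probes ran from 0.04 to 0.58 and none passed. Rpl3l, the form of Rpl3 found in striated muscle, read -2.64, -2.58 and -2.71 against -2.04, -2.63 and -2.74; only bromodichloromethane 1 was high, and its change of 0.17 (limma adjusted p = 0.61) became -0.04 without that animal. Rpl27l2, Rpl39l1 and Rps12l4 did not clear background in every animal of either group and have no value here.

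At the low end of the small subunit, Rps2, near the mRNA entry site, read 8.18, 8.01 and 8.10 in corn oil against 8.17, 8.23 and 8.29 in bromodichloromethane. Its groups overlapped, and its change was 0.14 (limma adjusted p = 0.38). Rps27, a zinc-binding protein, changed by 0.23 (limma adjusted p = 0.13) with groups that did not overlap, at 7.34, 7.22 and 7.31 against 7.52, 7.49 and 7.54. In the large subunit, Rpl18 changed by 0.14 (limma adjusted p = 0.38) and Rpl10, which joins the subunit late in its assembly, by 0.17 (limma adjusted p = 0.29). Rpl10 read 8.43, 8.20 and 8.30 against 8.50, 8.43 and 8.52, so its groups just touched.

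The choice of probe moved some genes and not others. For Rps2 the brightest of 7 probes gave 0.14 and the others up to 0.40, and for Rpl36a the probes ran from -0.0043 to 0.69. Rpl10, Rpl18, Rpl36al1 and Rps27 were low on each of their probes, between 0.04 and 0.26. In 46 of the 72 genes with several kept probes the brightest probe changed by less than the mean of the others, with a median difference of -0.05. Within a gene the probes' changes spanned a median of 0.12. With each probe on its own, 94 of the 237 kept member probes rose (39.7%), none fell, and 5.43% of all 39027 probes rose; 210 member probes had an unadjusted limma p under 0.05 upward and 0 downward.

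By animal, the family moved as a block. Measured as each gene's deviation from its corn oil mean, the median over the 79 genes was 0.09, -0.11 and 0.03 in corn oil 1 to 3 and 0.42, 0.31 and 0.35 in bromodichloromethane 1 to 3. In corn oil 1 all 79 genes lay above the corn oil mean, in corn oil 2 only 1 did and in corn oil 3 there were 61, so the controls also differed from each other across the whole family. The treated animals had 79, 77 and 77 genes above the corn oil mean. The lowest treated median, 0.31, was well above the highest control median, 0.09. The brightest probes of the 79 genes held 3.78%, 3.51% and 3.81% of the signal summed over the 28995 features in corn oil. In bromodichloromethane they held 5.05%, 4.64% and 4.62%. The group means were 3.70% ± 0.16 and 4.77% ± 0.24 (SD, n = 3).

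**Figure D2:**
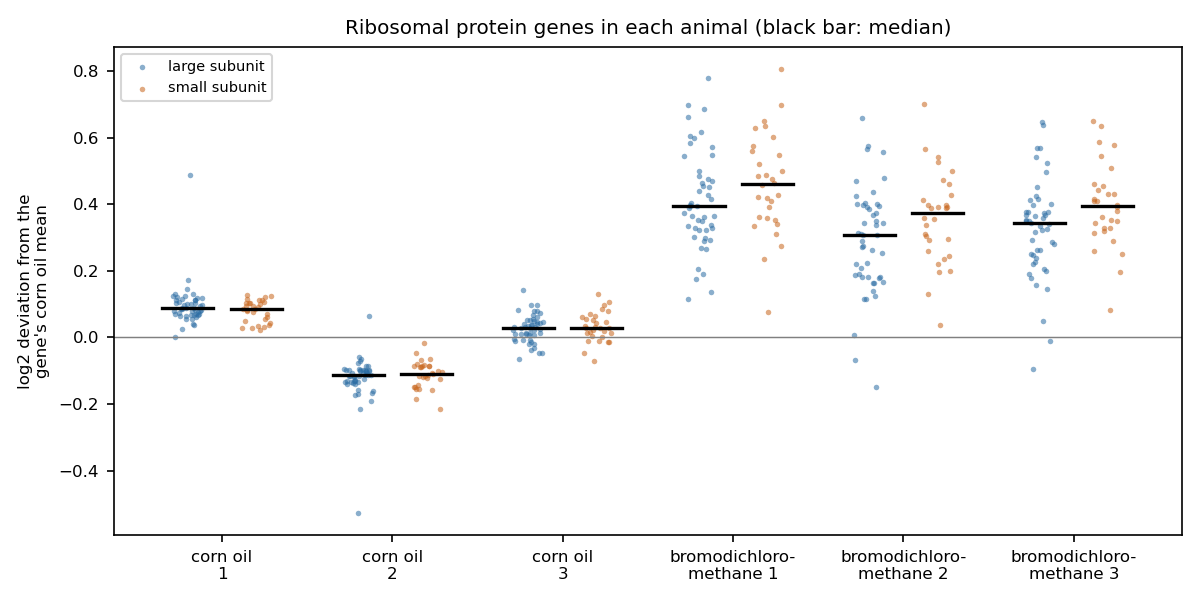
Each measured ribosomal protein gene's log2 deviation from its own corn oil mean (vertical axis) in each of the 6 animals, split by subunit, with black bars for medians. The medians of both subunits are above 0.30 in the 3 bromodichloromethane animals and between -0.11 and 0.09 in the 3 corn oil animals.

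On slide 1 alone, bromodichloromethane 1 stood above the mean of the 3 controls in all 79 genes, with a median of 0.42; bromodichloromethane 2 and 3, on slide 2, gave 0.31 and 0.35. With slide as a fixed block none of the 79 passed in limma (54 with an unadjusted p under 0.05), and with slide as a random block 23 did. Over all features 350 and 2328 were called with these blocks, against 2715 as reported. The number of rises fell with any animal left out, and so did the calls over all features. Leaving out corn oil 1, 2 or 3 left 7, 0 or 4 genes past the threshold, with 1232, 461 or 1060 features called. Leaving out bromodichloromethane 1, 2 or 3 left 3, 0 or 0 genes, with 1171, 335 or 749 features called. In these fits 53 to 68 genes had an unadjusted limma p under 0.05, and the family median stayed above 0. No gene passed in all 6 of these fits.

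The small subunit changed slightly more than the large, by an amount that varied with the choice of probe and with the processing. In the large subunit 11 of 49 genes rose (22.4%) with a median of 0.33, and in the small subunit 15 of 30 rose (50%) with a median of 0.40. The large subunit's median minus the small one's was 0.0025, -0.0040 and -4.0e-05 in corn oil 1 to 3 and -0.068, -0.066 and -0.052 in bromodichloromethane 1 to 3. The groups did not overlap, at -0.00051 ± 0.0033 against -0.062 ± 0.0090 (SD, n = 3). Over all 237 kept probes the same difference was 0.012, -0.0013 and -0.0099 in corn oil and -0.025, -0.021 and -0.032 in bromodichloromethane, so the treated animals were again lower and the difference was smaller. With the mean over a gene's probes 19 of 49 large and 16 of 30 small subunit genes rose. Under quantile normalization 15 of 49 and 13 of 30 did, so the small subunit's share was the larger in both. The large minus small median change, -0.068 as reported, was -0.021 under quantile normalization and -0.016 with normexp background correction. Shares of the signal summed over the 28995 features, by brightest probes, went from 2.44% ± 0.11 to 3.10% ± 0.16 for the large subunit. For the small subunit they went from 1.26% ± 0.05 to 1.67% ± 0.08 (SD, n = 3). Only the change in each gene was tested; the difference between subunits was not.

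**Figure D3:**
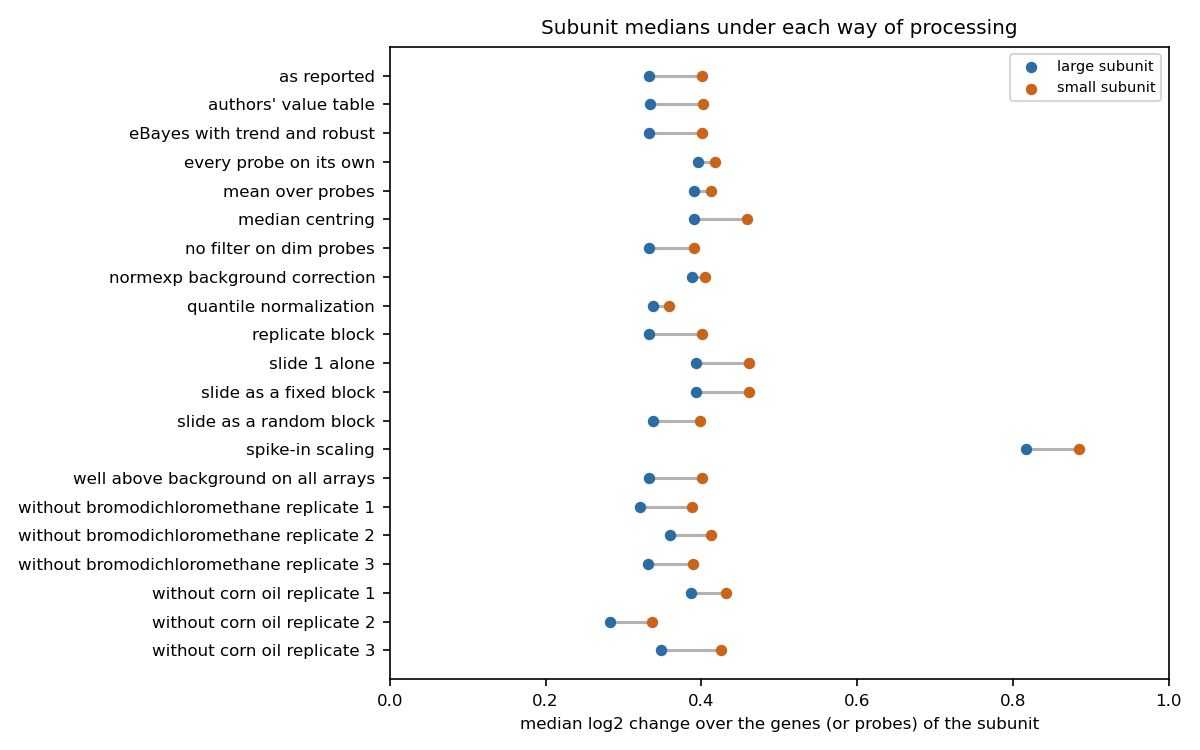
Median log2 change of large subunit and small subunit genes (horizontal axis) under the processing reported and under each alternative, 1 row per setting, joined by a grey line. The small subunit's point lies to the right in every row, with medians of 0.33 and 0.40 as reported and 0.40 and 0.42 over every probe, and spike-in scaling moves both to above 0.80.

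Signal strength differed between the members and most of the array. Of the 79 genes, 77 were among the brightest 10% of the features, where the other 2823 had a median change of 0.03 and 15.3% rose. Among the members, the 27 dimmest had a median of 0.44 with 13 risen, the next 26 a median of 0.37 with 9 risen and the 26 brightest a median of 0.29 with 4 risen. Over the 79 genes, which share the same 6 arrays and scaling, the mean signal and the change had a Spearman correlation of -0.44 and a Pearson correlation of -0.22, given as a description. The part of brightness in the members' changes was not tested.

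**Figure D4:**
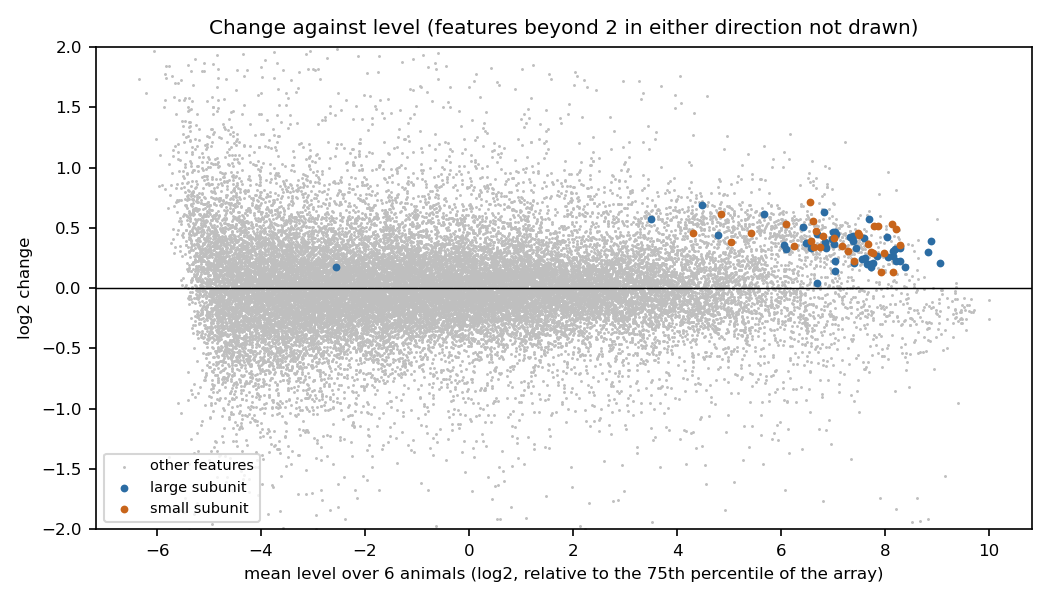
Log2 change (vertical axis) against mean signal over the 6 animals (horizontal axis, log2 relative to the array's 75th percentile) for the ribosomal protein genes by subunit and for all other features in grey. The coloured points form a band above 0 at the bright end, 77 of them among the brightest 10% of features, and slope down to the right, with a median of 0.44 in the 27 dimmest and 0.29 in the 26 brightest.

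The pyrimidine run at the start went with a slightly larger change. The 38 measured genes with a run had a median of 0.40 (middle range 0.31 to 0.46) with 14 risen, and the 25 measured genes with a window and no run had a median of 0.33 (0.26 to 0.42) with 7 risen. The ranges overlap widely, and the windows of Rps19 and Rps2 above show both exceptions: the largest change without a run and one of the smallest with a run of 20 bases. This difference was not tested.

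The proteins that travel with the ribosome but lie outside the naming rule gave similar values. Rack1, the scaffold on the small subunit's head, rose by 0.56 (SE 0.10, limma adjusted p = 0.026), from 4.75, 4.53 and 4.63 to 5.30, 5.18 and 5.11. Fau, made as a fusion to a ubiquitin-like protein, changed by 0.30 (limma adjusted p = 0.0997) and did not pass, with 7.83, 7.60 and 7.71 against 8.02, 7.98 and 8.04. The groups did not overlap in Rack1 or in Fau.

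Other lists of the translation machinery had lower medians. A list of 19 measured genes with TOP mRNAs, which holds the ribosomal proteins outside the naming rule again, had a median change of 0.16. Of its 16 other genes none passed, with a median of 0.13 and 14 above 0. Of 11 genes listed as elongation factors, 5 of them in the TOP list too, none passed, with a median of 0.14 and 7 above 0. The list also holds the release factors Etf1 and Gspt1 and the kinase Eef2k, at -0.22, -0.03 and -0.32. Eef1g and Eef1b2, subunits of the exchange factor that recharges the tRNA carrier eEF1A, gave 0.42 and 0.32 (limma adjusted p = 0.063 and 0.064). Among 34 initiation factors, with a median of 0.02, Pabpc4, a poly(A)-binding protein, rose by 0.80 (limma adjusted p = 0.015) and Eif1ax by 0.66 (limma adjusted p = 0.045).

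Eif6 was the only member of these lists that fell. It binds the free large subunit, is needed for its assembly and keeps it from joining the small one. It read 5.19, 5.02 and 5.19 in corn oil and 4.57, 4.47 and 4.35 in bromodichloromethane, a change of -0.67 (SE 0.10, limma adjusted p = 0.019), opposite in sign to that of the large subunit proteins it binds. With spike-in scaling the change was -0.19.

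None of the 70 ribosome biogenesis factors passed in either direction, with a median of 0.05; the 2 with the smallest p were Rrs1 (0.30, limma adjusted p = 0.096) and Mybbp1a (0.34, limma adjusted p = 0.10). The same held for 66 mitochondrial ribosomal proteins, which serve a separate ribosome, with a median of 0.08. None of 12 ribosome-associated and quality control factors passed, with a median of 0.10 and Ccdc124, which binds idle ribosomes, at 0.33 (limma adjusted p = 0.051). The 15 measured genes of the mTORC1 pathway and the Myc family had a median of -0.04, and none passed; Larp1 was not analysed here.

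**Figure D5:**
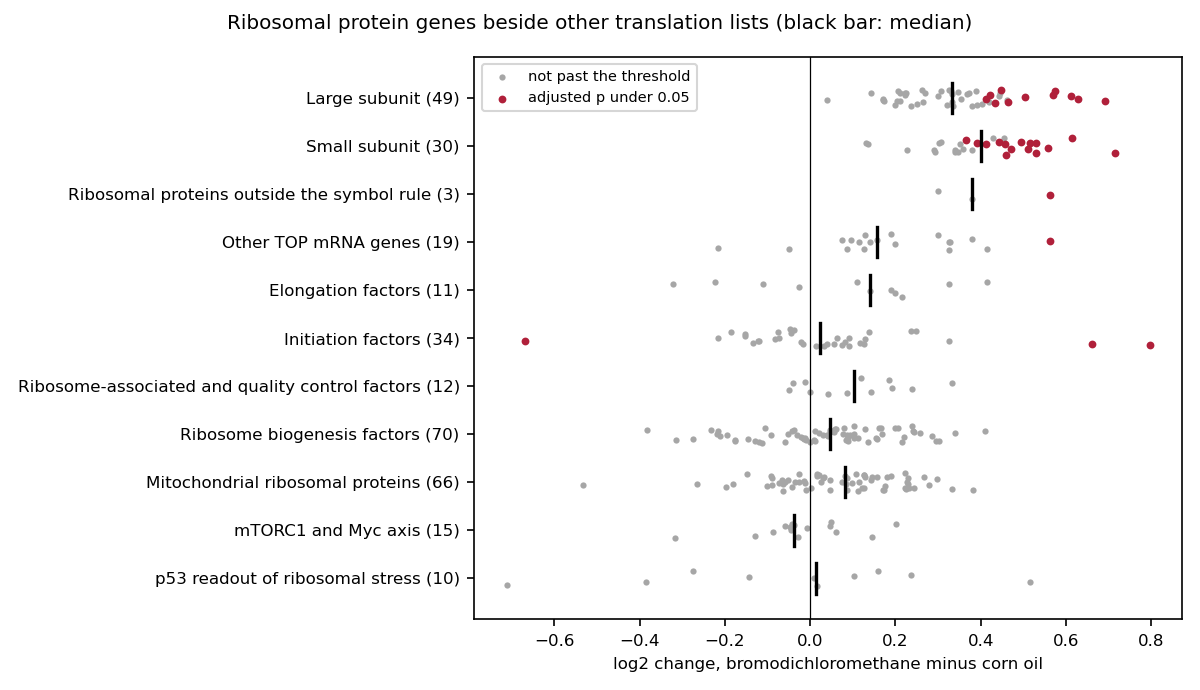
Log2 change (horizontal axis) of each measured gene in the large and small subunits and in 9 other lists of the translation machinery and its control, with the number measured in brackets, red points past an adjusted p of 0.05 in limma and black bars for medians. The subunits' medians are 0.33 and 0.40; those of the other lists lie between -0.04 and 0.16, apart from the ribosomal proteins outside the naming rule, and Eif6 is the red point at -0.67.

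The tissue label was checked against markers of liver cell types, and all 10 hepatocyte markers were measured. Their median change was -0.22 with 1 of 10 fallen, Serpina1, the main protease inhibitor of plasma, at -0.50 (limma adjusted p = 0.023). Their summed signal, as multiples of the array's 75th percentile, ranged from 5490 to 6048 in corn oil and from 4678 to 5309 in bromodichloromethane. Markers of lipid-associated macrophages moved the other way, with 4 of 6 risen and summed signals of 11.9 to 13.1 against 24.0 to 52.9. Of 11 T and NK cell markers 3 rose (summed signals of the list 2.74 to 3.10 against 3.32 to 4.12). Of these 11, 2 were dim in corn oil and so were measured through the bromodichloromethane group alone. Cd2 and Cd3e, which rose, had low corn oil means of -5.81 and -5.91. Of 6 cholangiocyte markers 1 rose (summed 2.16 to 2.31 against 2.97 to 3.74). Of 6 mast cell markers 3 fell (summed 7.64 to 14.05 against 3.91 to 9.51), and 1 of the 6 was dim in bromodichloromethane.

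Of 7 sinusoidal endothelial markers 1 fell, Lyve1, and the list's summed signals were 65.2 to 68.7 in corn oil and 53.7 to 58.2 in bromodichloromethane. Of 7 red cell markers 1 fell, Epb42, and the list's summed signals were 530 to 784 and 357 to 509. Of 13 Kupffer cell, 10 stellate cell, 4 B cell, 3 neutrophil and 11 proliferation markers none passed. The summed signals of the proliferation markers were 10.1 to 14.2 in corn oil and 11.3 to 12.5 in bromodichloromethane, and those of the Kupffer cell markers 249 to 308 and 261 to 300.4. Neutrophil genes Cxcr2, Elane, Ltf and Ngp, and Klrb1, Ms4a2 and Rhag of other lists, were not well above background in either group. The part of cell makeup in the members' changes was not tested.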

How the data were processed

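Liver RNA of 3 corn oil and 3 bromodichloromethane rats was scanned on 1-colour arrays. Feature Extraction 10.7 (Agilent) read the scans, as the submitters' processing notes give it; the deposited intensity values are background-subtracted, per the file headers, and unscaled between arrays. A deposited table holds a ratio that, from the values, is that intensity over the array's 75th percentile; it served as an alternative. On each array 61.3% to 66.9% of probes were well above background. The number of arrays limits the precision.

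Probes flagged as outliers (27) were dropped; no member probe was flagged or saturated. Of 61657 probes, 27460 (44.5%) matched 1 symbol through RefSeq (GRCr8), later than the arrays' build, so no probe has coordinates here. Log2 intensities minus the array's 75th percentile were compared with limma 3.58.1 (R 4.3.3; lmFit, eBayes), two-sided, over 28995 features that were well above background on all 3 arrays of a group, the brightest probe standing for each gene. SE is the moderated standard error. The labels describe separate animals. On simulated data with 28995 features the model recovered 10.7% of genes changed 1.5-fold and 49.9% of those changed 2-fold. Of the calls made there, 5.82% were false. The simulation changed far fewer features than the 2715 called here and drew independent noise for each. Its shares therefore need not hold for these data.

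Members named were, per subunit, the 6 largest changes past the threshold and the 3 smallest, genes fixed for their role, and those dim or with probes of both signs; from each other list, up to 3 genes past the threshold or the 2 with the smallest p. Rps13, Rps16, Rps12, Rps15a, Rps3a, Rps20, Rpl17, Rpl39, Rpl31, Rpl13, Rpl37a and Rpl19 are outside that rule and were chosen after their values were seen. The results of some genes under this rule are not reported here; counts and medians include them. The members and the lists were chosen with earlier results of these data known. The planned background correction named a mean signal; the median signal columns were used in its place.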

Additional observations from a re-analysis of the deposited data

How the results depend on the processing

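The 79 measured genes kept a positive median change under all alternatives run, 0.36 as reported and 0.84 under spike-in scaling, where the large subunit had 0.82 and the small 0.88; none was called lower under any of them. The count of genes called higher, 26 as reported, was 27 with the deposited table, 28 under quantile normalization, 32 with the stricter background filter, 35 with the mean over probes, 42 with median centring, 46 with normexp, 53 with eBayes trend and robust options, 78 under spike-in scaling and 94 of 237 with every probe on its own. It was 0 with no filter on dim probes (63 at an unadjusted limma p under 0.05), on slide 1 alone (42) and with slide as a fixed block (54); 23 remained past the threshold with slide as a random block. Leaving out 1 animal gave 0 to 7, and 335 to 1232 features called, against 2715 with all 6. Features called, in either direction, were 2720 with the deposited table, 2715 under quantile normalization and 2801 with the stricter filter. They were 2761 with the mean over probes, 2969 with median centring, 3261 with normexp and 3433 with eBayes trend and robust options. With the random slide block they were 2328, and with every probe on its own 3325 of 39027 probes were called. That total was 609 with no filter, 120 on slide 1 alone, 350 with the fixed slide block and 12996 under spike-in scaling. With the replicate number as a block, 0 members were called (62 at an unadjusted limma p under 0.05) and 353 features; the deviations of same-numbered animals correlated at 0.092, 0.019 and 0.12, so the numbers were not taken to pair them. Of all calls 63.6% were higher as reported, 74.2% with median centring and 97.6% under spike-in scaling; it was 54% with the fixed slide block, 49.6% without bromodichloromethane 2 and 43.3% on slide 1 alone.

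The large minus small subunit median, -0.0683, was -0.0224 over every probe, -0.0207 with the mean over probes, -0.0158 with normexp, -0.0211 under quantile normalization, -0.0582 with no filter and -0.0602 with the random slide block; leaving out 1 animal gave -0.0773 to -0.0441. The change of Rpl36al1 was -0.0317 under quantile normalization, and leaving out 1 animal gave -0.0098 to 0.0939; for Rpl3l it gave -0.0436 to 0.307, and for Rpl19 -0.09 to 0.42. The causes were not tested. The 3 animals per group, a slide that holds all controls with 1 treated animal, and probes that near-identical copies may share limit single genes.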

Other observations

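Rpl19 had the widest spread of the measured members, and its values were looked at after they were seen. Its brightest probe read 8.13, 7.11 and 7.68 in corn oil and 7.98, 7.49 and 7.96 in bromodichloromethane, with an SD of 0.51 among the controls, and its change was 0.17 (SE 0.28, limma adjusted p = 0.74). Leaving out 1 animal moved that change between -0.09 and 0.42, and it was below 0 without corn oil 2. The other 3 Rpl19 probes had even groups and changes of 0.24, 0.33 and 0.42, the last with a limma adjusted p of 0.036 when every probe was fitted on its own. That dimmest probe read 5.66, 5.51 and 5.63 against 6.05, 6.0 and 6.02, so the 4 probes of 1 gene differed in whether it passed.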
